A study of Homo sapiens with 2 samples.

Results

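Divergent promoter transcripts are long non-coding RNAs that start at the promoter of another gene and run away from it on the opposite strand, and gene nomenclature marks them with the partner's symbol followed by -DT. The table of HCC1954 cells held 590 genes with such a symbol. The members described here were chosen by their measured level: 165 of the 590 reached 1 CPM (the count scaled to a common library total, 38 counts in the ASO-1235 library and 49 in the ASO-NC library) in at least 1 of 2 libraries, out of 14352 genes of any kind at that level. HCC1954 is an established breast cancer cell line, labelled as HER2-positive. One library carried the genotype label ASO-1235, although its title has the prefix Si, and the other carried ASO-NC. By its title the series concerns LINC01235, a long non-coding RNA, and the labels give neither dose nor duration of exposure for these groups.

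Each group was 1 library of polyadenylated RNA, with 37916307 counts for ASO-1235 and 48092494 for ASO-NC. No difference therefore has a replicate check, and no p-value is given. Ratios are ASO-1235 over ASO-NC after TMM scaling, which sets the bulk of genes to a ratio near 1, with an exact 95% interval that covers counting error only. LINC01235 had 0 counts in the ASO-1235 library, against 1337 in the ASO-NC library. ERBB2, which encodes HER2, stood at 4766 CPM in ASO-1235 and 4719 CPM in ASO-NC. Of 15 markers of immune cells, fibroblasts, endothelium and adipocytes, 4 reached 1 CPM, and PTPRC, the defining marker of leukocytes, had 8 counts in ASO-1235 and 0 in ASO-NC. The summed level ran from 1.58 CPM in ASO-1235 and 2.08 CPM in ASO-NC for immune markers to 42.1 and 43.8 CPM for fibroblast markers. In bulk RNA, fewer expressing cells and less RNA per cell cannot be told apart.

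Most active mammalian promoters are transcribed in both directions. The upstream, divergent RNA is usually short-lived: early cleavage and polyadenylation, Integrator and the Restrictor complex end its synthesis, U1 snRNP protects the sense transcript from the same fate, and the nuclear exosome degrades the product with its NEXT and PAXT adaptors. A minority of divergent RNAs are spliced and polyadenylated and accumulate, and these are the ones with gene symbols and with reads in a library made from polyadenylated RNA.

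The annotation placed the members where the name says. Of the 165, 164 were found in GENCODE 29 on GRCh38, and all 164 lay on the strand opposite to the partner. The closest annotated starts of a member and its partner were a median of 118.5 bases apart, within 200 bases in 120 pairs and within 1 kb in 157. In 146 pairs the starts pointed away from each other with a gap between them, and in 18 the first exons ran past each other. The largest distance was that of EPM2A-DT, whose start lay 63386 bases from that of EPM2A in this annotation. Exonic bases were shared with the partner in 41 pairs, a median of 128 bases, and 19 members shared exonic bases with another gene at 1 CPM. Reads from such bases cannot be told apart without strand information, which is not given in the sources used here. IRX2-DT was annotated as protein-coding in GENCODE 29, and the other 163 as non-coding.

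RefSeq promoter windows, from 250 bases before a start to 50 after it, were at hand for 134 members and 144 partners. They were rich in CpG, with a median of 31 CpG dinucleotides per window for members and 30 for partners, against 14 over 35116 promoters. A GC box (GGGCGG, either strand) occurred in 74.6% of the members' windows and 71.5% of the partners', against 45.0% of all promoters. The ETS core CCGGAAG occurred in 23.9% of members and 29.2% of partners, against 10.3% of all. The TATA box hexamer TATAAA was in 3.73% of members and 6.25% of partners, against 11.5% of all, and CCAAT was in 31.3% of members and 38.2% of partners, against 34.6%. Windows of a member and its partner overlap, so these shares are not independent, and a match is a description of letters, not a binding site. The 35116 promoters were not chosen by expression, whereas the members were. Whether the differences from all promoters go with expression was not tested.

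The shared stretch is short enough to print. The 4 promoters below are those of OSER1-DT and STK4-DT, among the highest of the members in the ASO-1235 library, and of MOCS2-DT and RNASEH1-DT, among the lowest. Each is read 5′ to 3′ on the strand of the divergent transcript (RefSeq, GRCh38.p14), from 30 bases inside the partner to 30 bases inside the divergent transcript. Capitals mark the bases between both RefSeq starts, from which the partner is read leftwards and the divergent transcript rightwards. The stretches lie at chr20:44210742-44210989 (plus strand), chr20:44966429-44966541 (minus), chr5:53109728-53109871 (plus) and chr2:3558304-3558415 (plus).
OSER1-DT: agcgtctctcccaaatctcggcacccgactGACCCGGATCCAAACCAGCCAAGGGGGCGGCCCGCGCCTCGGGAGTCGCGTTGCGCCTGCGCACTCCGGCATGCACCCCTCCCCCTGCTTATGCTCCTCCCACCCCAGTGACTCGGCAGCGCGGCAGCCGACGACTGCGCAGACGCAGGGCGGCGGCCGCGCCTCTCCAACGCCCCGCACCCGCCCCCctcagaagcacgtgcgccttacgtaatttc
STK4-DT: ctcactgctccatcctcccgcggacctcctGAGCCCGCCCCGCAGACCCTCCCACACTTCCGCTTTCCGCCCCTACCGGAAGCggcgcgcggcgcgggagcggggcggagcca
MOCS2-DT: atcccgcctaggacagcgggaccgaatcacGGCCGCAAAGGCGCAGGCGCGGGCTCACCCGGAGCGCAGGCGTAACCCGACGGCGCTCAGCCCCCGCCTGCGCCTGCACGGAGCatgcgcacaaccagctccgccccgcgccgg
RNASEH1-DT: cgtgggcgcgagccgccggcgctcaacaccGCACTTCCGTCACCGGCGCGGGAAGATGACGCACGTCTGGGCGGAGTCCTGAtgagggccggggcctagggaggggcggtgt

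The RefSeq starts were 189 bases apart for OSER1-DT, 54 for STK4-DT, 85 for MOCS2-DT and 53 for RNASEH1-DT. All 4 stretches hold a GC box on one strand or the other. The stretch of STK4-DT also holds the ETS core, between the starts, and that of OSER1-DT holds the E-box CACGTG within the divergent transcript. Of the stretches not printed, that of MIF4GD-DT holds a GC box and that of EOLA2-DT, also among the lowest, holds none of the motifs searched. Over the members at least 1.5-fold higher in ASO-1235 and with a window, 18 of 26 held a GC box, and of those at least 1.5-fold lower, 6 of 8. The ETS core was in 3 of the 26 and 2 of the 8, against 23.9% of all members' windows. CCAAT was in 3 of the 26 and 1 of the 8, against 31.3%. These differences rest on few windows and were not tested.

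The divergent transcripts were weakly expressed. Their median was 2.72 CPM in the ASO-1235 library and 2.33 CPM in the ASO-NC library, against 49.8 and 46.7 CPM for the 163 partners at 1 CPM. All members together took 0.0814% of the counts in ASO-1235 and 0.0707% in ASO-NC. Per kb of exon, the median member stood at 1.58 CPM per kb in ASO-1235 and 1.35 in ASO-NC, and the median partner at 10.1 in ASO-1235 and 9.68 in ASO-NC. Within a pair, the divergent transcript reached a median of 18.4% of its partner's level per kb in ASO-1235 and 17.8% in ASO-NC. In 17 of 162 pairs in ASO-1235 and 15 in ASO-NC it was the more abundant of the pair.

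**Figure D1:**
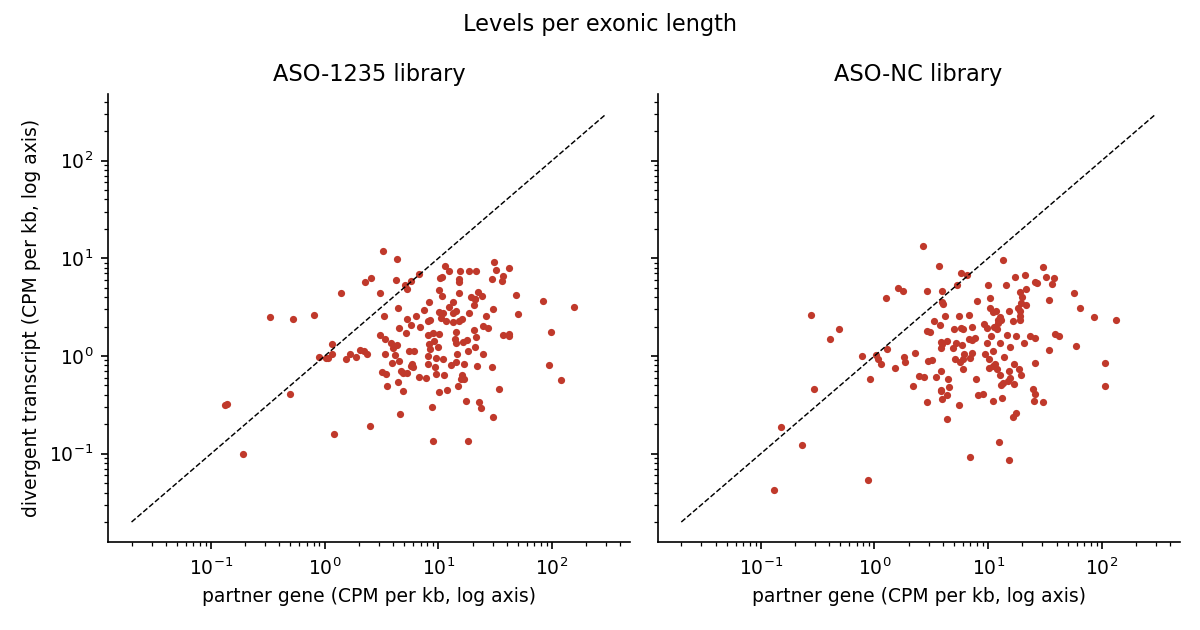
Level of each divergent transcript against its partner in CPM per kb of exon, on log axes, in the ASO-1235 library (left) and the ASO-NC library (right). Each point is 1 pair and the dashed line marks equal levels, which 17 pairs exceed in ASO-1235 and 15 in ASO-NC.

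The most abundant member was GARS1-DT, next to the glycyl-tRNA synthetase gene, with 36.4 CPM in ASO-1235 and 36.5 CPM in ASO-NC. SLC12A2-DT, next to a sodium-potassium-chloride cotransporter gene, had 26.7 and 25.3 CPM, and CTBP1-DT, next to a transcriptional corepressor gene, had 24.6 and 22.6 CPM. These 3 had ratios of 0.940 (0.876 to 1.01), 0.996 (0.916 to 1.08) and 1.03 (0.939 to 1.12), so none differed beyond counting error. NIPBL-DT, next to the cohesin loader gene, had 26.3 CPM in ASO-1235 and 20.1 CPM in ASO-NC, a ratio of 1.24 (1.13 to 1.35), and NIPBL itself had 1.32 (1.28 to 1.35). BTG2-DT, next to an antiproliferative gene, had 20.8 and 22.4 CPM, a ratio of 0.875 (0.797 to 0.960), while BTG2 was at 1.01 (0.962 to 1.06). A divergent transcript can outweigh its partner: TMEM161B-DT stood at 252% of TMEM161B per kb in ASO-1235 and 310% in ASO-NC, and ZNF584-DT at 315% of the zinc finger gene ZNF584 in ASO-1235 and 307% in ASO-NC.

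More members had ratios above 1 than below, in part through the filter on level. Of the 165, 102 had a log2 ratio above 0 and 63 below, and the median was 0.14 (order-statistic interval 0.05 to 0.26). Among the 132 members at 1 CPM in both libraries, 77 were above 0 and 55 below, and the median was 0.10 (−0.003 to 0.17). These intervals of medians take genes from the same pair of libraries as units. They hold no error between libraries and are no test of a difference between the groups. Over all 14352 genes the median was 0.00, and over the 3781 genes with a mean under 5 CPM, where 121 of the members lie, it was 0.09. The 121 weak members had a median of 0.21 and the 44 more abundant ones 0.10. The interval lay above 1 for 53 members, below 1 for 20 and included 1 for 92. On halved counts, which allow for both mates of a read pair having been counted, it lay above 1 for 31 and below 1 for 8. Summed over members, counts were 30875 in ASO-1235 and 34008 in ASO-NC, a ratio of 1.09 (1.07 to 1.10), and summed over their partners 1.04 (1.03 to 1.04).

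**Figure D2:**
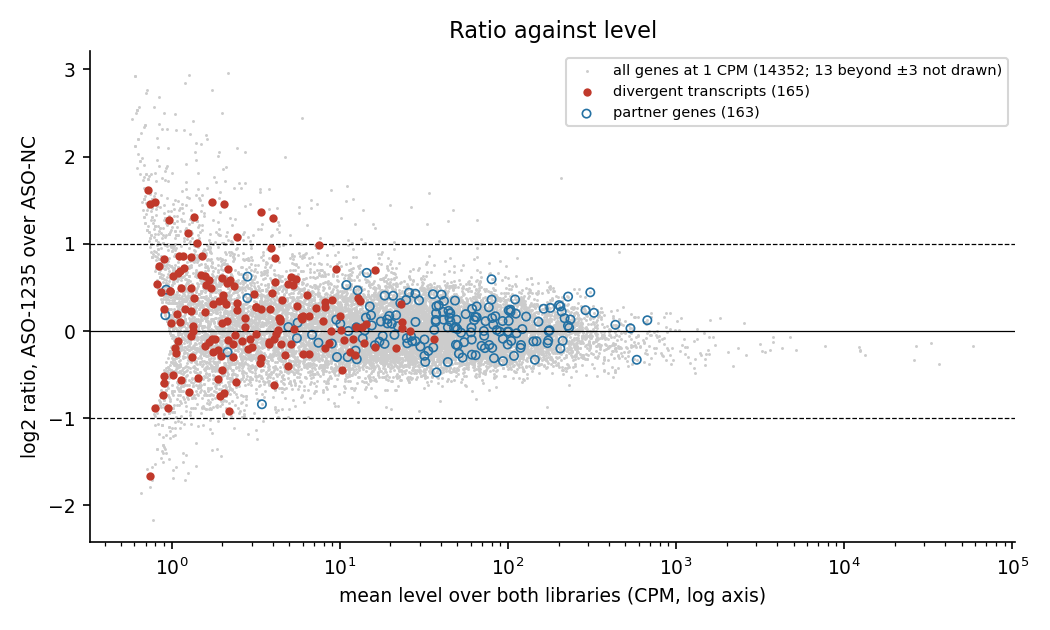
Log2 ratio ASO-1235 over ASO-NC against the mean level in CPM (log axis) for all 14352 genes at 1 CPM (grey), the 165 divergent transcripts (red) and the 163 partners (open blue). Dashed lines mark 2-fold and genes beyond a log2 ratio of 3 either way are not drawn; the divergent transcripts fill the wide, weak end of the cloud, and all partners lie inside the 2-fold lines.

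At 2-fold or more with an interval that excluded 1, here termed called, 12 members (7.27%) were higher in ASO-1235 and 1 (0.606%) was lower. The same rule called 2.53% of all genes higher and 0.516% lower, but 8.70% higher and 1.93% lower among genes with a mean under 5 CPM. The 121 members under 5 CPM, with 9.92% higher and 0.826% lower, are to be read against those of genes at that level. At 1.5-fold, 34 members (20.6%) were higher and 9 (5.45%) lower, against 6.40% and 2.95% of all genes and 17.9% and 9.02% of genes under 5 CPM. Restricted to a mean under 5 CPM, 24.0% of the members were higher and 7.44% lower. Other RNAs under 5 CPM gave 19.3% and 9.85% for antisense (-AS) genes and 17.7% and 6.92% for LINC genes. Whether the members differ from these classes was not tested.

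Selection on level bears on these counts. At 1 CPM in both libraries were 132 members, 25 reached it in ASO-1235 only and 8 in ASO-NC only, and members of these last groups had to differ. Of the 12 called higher, 8 belong to the 25 and 4 to the 132, and the 1 called lower belongs to the 8. Over the 132, 3.03% were called higher and 0 lower, against 0.692% and 0.104% of the 13433 genes at 1 CPM in both libraries. At 1.5-fold, 16 of the 34 higher members belong to the 25, and 4 of the 9 lower ones to the 8. This left 13.6% of the 132 higher and 3.79% lower, against 3.81% and 2.08% of the 13433 genes, whose levels are for the most part above those of the members. Just inside the limit lay CCDC15-DT (38 counts in both libraries), ZRANB2-DT (38 in ASO-1235 and 31 in ASO-NC) and LRRC8D-DT (22 and 49). Just outside lay PPP1CB-DT (32 and 47), ANKHD1-DT (35 and 47) and SUV39H2-DT (30 and 47).

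**Figure D3:**
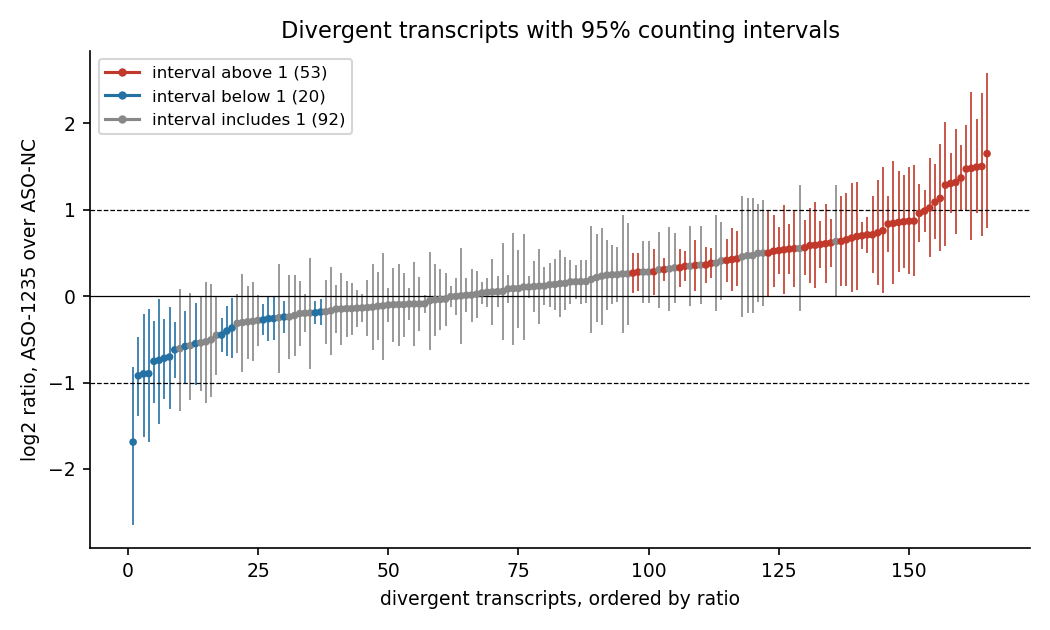
Log2 ratio ASO-1235 over ASO-NC of the 165 divergent transcripts in order of their ratio, with 95% counting intervals as vertical lines. The interval lies above 1 for 53 (red), below 1 for 20 (blue) and includes 1 for 92 (grey), and on halved counts it lies above 1 for 31 and below 1 for 8; dashed lines mark 2-fold.

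Among the members called higher, OSER1-DT, STK4-DT and CHKA-DT had the intervals farthest above 1. OSER1-DT, next to an oxidative stress-responsive gene, had 190 counts in ASO-1235 and 88 in ASO-NC, a ratio of 2.58 (1.99 to 3.36). CHKA-DT, next to the choline kinase alpha gene, had 219 and 106 counts, a ratio of 2.47 (1.95 to 3.15). STK4-DT, next to the gene of the Hippo pathway kinase MST1, had 116 and 50, a ratio of 2.77 (1.98 to 3.95). All 3 were at 1 CPM in both libraries, and the partner was at 1.25 (1.14 to 1.37) for OSER1, 1.08 (1.01 to 1.15) for CHKA and 1.02 (0.977 to 1.06) for STK4.

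LARP4B-DT, next to a gene for an RNA-binding protein of the La-related family, had 99 counts in ASO-1235 and 42 in ASO-NC, a ratio of 2.82 (1.95 to 4.15). EPM2A-DT, named for the gene of the glycogen phosphatase laforin, had 75 and 36, a ratio of 2.49 (1.65 to 3.82). SAP30-DT, next to a gene of the SIN3 histone deacetylase complex, had the highest ratio of all members, 3.14 (1.73 to 5.98), from 42 counts in ASO-1235 and 16 in ASO-NC. These members are few-read RNAs with wide intervals. All were under 1 CPM in ASO-NC, so they passed the filter on level only through the library in which they were higher. The others called higher were TMEM30A-DT (45 and 19 counts), RNF139-DT (42 and 18), TNKS2-DT (53 and 26), PPP1R3B-DT (66 and 36), SEPTIN7-DT (128 and 72) and ZNF747-DT (73 and 43), with ratios from 2.03 to 2.83. Of these others, only SEPTIN7-DT was at 1 CPM in ASO-NC too, and the rest had to differ to be members.

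Changes were smaller among better-measured members. Of the 44 whose mean reached 5 CPM, none was called at 2-fold, while 5 (11.4%) passed 1.5-fold upwards and 0 downwards. Among all genes with a mean of at least 5 CPM, 2.30% and 0.776% did. Their median level was 33.2 CPM, against 9.22 CPM for these members, so the levels are unlike. Antisense (-AS) genes above 5 CPM, with a median of 10.7 CPM, gave 5.77% and 0%. LINC genes above 5 CPM, with a median of 9.07 CPM, gave 2.0% and 2.0%. Whether the members differ from these classes was not tested. LY6E-DT, next to an interferon-inducible gene of a surface protein, had 389 counts in ASO-1235 and 235 in ASO-NC, a ratio of 1.98 (1.68 to 2.34). RIPK2-DT, next to the gene of a kinase of NOD receptor signalling, had 778 and 573, a ratio of 1.62 (1.46 to 1.81). PCMTD1-DT was at 1.64 (1.42 to 1.89), ZMPSTE24-DT at 1.53 (1.26 to 1.87) and C2orf49-DT at 1.52 (1.26 to 1.83). Except for LY6E-DT and RIPK2-DT, which the naming rule selects, these 5 were picked out after their values were seen. Counts were even for 57.0% of members in ASO-1235 and 61.2% in ASO-NC, against 53.8% and 54.5% over all genes. An excess of even counts can arise when both mates of a read pair are counted, which was not tested. Intervals were therefore also computed on halved counts. For all 5 these wider intervals lay above 1.

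The member called lower was SF1-DT, which starts 168 bases from the gene of a splicing factor that binds the branch point. It had 14 counts in ASO-1235 and 54 in ASO-NC, a ratio of 0.310 (0.159 to 0.566), while SF1 had 21127 and 24731 counts and a ratio of 1.02. MOCS2-DT, next to the molybdopterin synthase gene, had 60 and 136 counts, a ratio of 0.528 (0.383 to 0.720). Both lay below their partners, MOCS2 being at 1.13 (1.02 to 1.24). SF1-DT shares no exonic bases with another gene at 1 CPM, and MOCS2-DT shares 79 with MOCS2. SF1-DT passed the filter on level only in ASO-NC.

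MIF4GD-DT was at 0.593 (0.424 to 0.821) from 57 counts in ASO-1235 and 115 in ASO-NC. B4GAT1-DT, next to the gene of a glycosyltransferase of dystroglycan, was at 0.650 (0.518 to 0.812) from 125 and 230. EOLA1-DT and EOLA2-DT were at 0.536 (0.324 to 0.865) and 0.608 (0.439 to 0.834), and the interval of EOLA1-DT on halved counts, 0.256 to 1.06, included 1. EOLA1 and EOLA2 are near-identical copies on chromosome X, so the counts of their divergent transcripts are uncertain too. EOLA1-DT passed the filter on level only in ASO-NC. MIF4GD-DT and B4GAT1-DT each share exonic bases with a gene other than the partner. The best-measured member among the lowest was RNASEH1-DT, next to the ribonuclease H1 gene, with 342 counts in ASO-1235 and 559 in ASO-NC, a ratio of 0.732 (0.638 to 0.838), and 125 bases shared with RNASEH1. IRF2-DT, next to an interferon regulatory factor gene, had 76 and 136 counts, a ratio of 0.668 (0.498 to 0.891), which included 1 on halved counts (0.437 to 1.01).

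The partner genes had ratios nearer to 1, at levels unlike those of the members, a median of 48.9 CPM against 2.36 CPM. Whether the 2 sets differ in spread at equal level was not tested. All 165 partners were in the table and 163 reached 1 CPM, the others being C2orf74 and FAM151B. Their median log2 ratio was 0.05, none of them was called at 2-fold in either direction, and 159 lay within 1.5-fold, against 120 of the members. At 1.5-fold, 3 partners were higher and 1 lower, or 1.84% and 0.613%, against 4.90% and 2.02% of 12271 protein-coding genes. Most partners are well expressed: among the 156 with a mean of at least 5 CPM, 1.28% were higher and 0 lower, against 2.22% and 0.715% of protein-coding genes at that level. Intervals of the partners were narrow, a median width of 1.13-fold from bound to bound against 1.79-fold for the members. The 3 higher partners were KDM7A, a histone demethylase gene, FOXP1, a forkhead factor gene, and RNF32, and the lower one was EPM2A. RNF32 was picked out after its value was seen.

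For most pairs, ratios of the divergent transcript and its partner could not be told apart at this depth. The ratio of ratios, which no scaling of the libraries touches, had an interval that included 1 in 113 of 163 pairs. It lay above 1, with the divergent transcript relatively higher in ASO-1235, in 30 pairs and below 1 in 20, and on halved counts in 20 and 11. With all counts that is 18.4% and 12.3%, against 23.6% and 15.8% of 322 pairs of an antisense (-AS) RNA and its partner treated alike. The median difference in log2 ratio, divergent transcript minus partner, was 0.09, against 0.12 for the antisense pairs. Among 37 pairs with at least 500 counts of the divergent transcript it was 0.01.

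**Figure D4:**
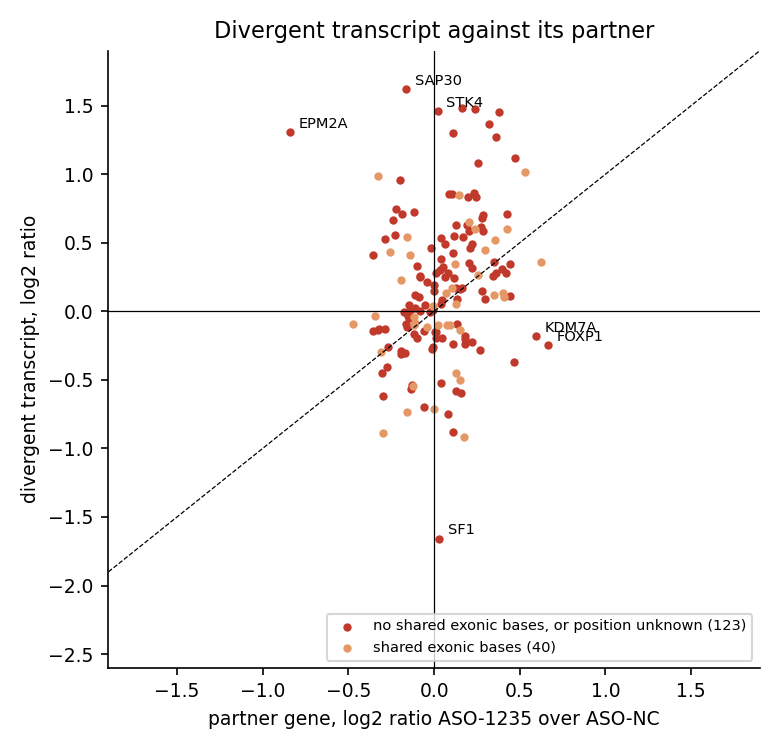
Log2 ratio ASO-1235 over ASO-NC of each divergent transcript against that of its partner for 163 pairs, in orange for the 40 with shared exonic bases and in red for the rest. The dashed line marks equal ratios; partners span −0.84 to 0.67 and divergent transcripts −1.66 to 1.62, and named points are pairs of the text.

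Of the pairs farthest apart, EPM2A-DT and EPM2A stood out as the pair with opposite moves past 1.5-fold. EPM2A had 97 counts in ASO-1235 and 208 in ASO-NC, a ratio of 0.558 (0.434 to 0.713), and the ratio of ratios was 4.47 (2.74 to 7.33). EPM2A-DT shares exonic bases with FBXO30 and SHPRH, so its reads cannot be assigned to it alone. It also passed the filter on level only in ASO-1235, so it had to be higher there to be a member. EPM2A-DT and EPM2A were the only pair in which both genes passed 1.5-fold.

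In LY6E-DT, SRP14-DT and SAP30-DT the divergent transcript was higher and the partner lower, each with an interval that excluded 1. LY6E had 5023 counts in ASO-1235 and 7547 in ASO-NC, a ratio of 0.796 (0.768 to 0.825), and the ratio of ratios was 2.49 (2.10 to 2.95). SRP14-DT had 200 and 123 counts, a ratio of 1.94 (1.55 to 2.45), while SRP14, a gene of the signal recognition particle, had 7466 and 10253, a ratio of 0.871 (0.845 to 0.897). SAP30 had 597 and 799 counts, a ratio of 0.893 (0.802 to 0.995). The upper bound for SAP30 lies close to 1, and its interval on halved counts is not given here. SAP30-DT passed the filter on level only in ASO-1235, so it had to be higher there to be a member. LY6E-DT and LY6E share 88 exonic bases, and the other pairs of these 3 share none.

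In the other direction, KDM7A had 3732 counts in ASO-1235 and 2957 in ASO-NC, a ratio of 1.51 (1.44 to 1.58). KDM7A-DT, 149 bases away, had 592 and 804, a ratio of 0.880 (0.790 to 0.980), so the ratio of ratios was 0.583 (0.518 to 0.657). The interval of KDM7A-DT itself included 1 on halved counts (0.755 to 1.03). FOXP1 was at 1.59 (1.42 to 1.78) from 688 and 518 counts, and FOXP1-DT at 0.841 (0.541 to 1.30). ZKSCAN2, a zinc finger gene, was at 1.38 (1.22 to 1.56), and ZKSCAN2-DT, 21 bases away, at 0.775 (0.606 to 0.986), with 0.545 to 1.09 on halved counts. RNF32, by contrast, was higher together with its divergent transcript, with RNF32 at 1.54 (1.18 to 2.02) and RNF32-DT, which shares 53 exonic bases with it, at 1.28 (1.11 to 1.49).

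**Figure D5:**
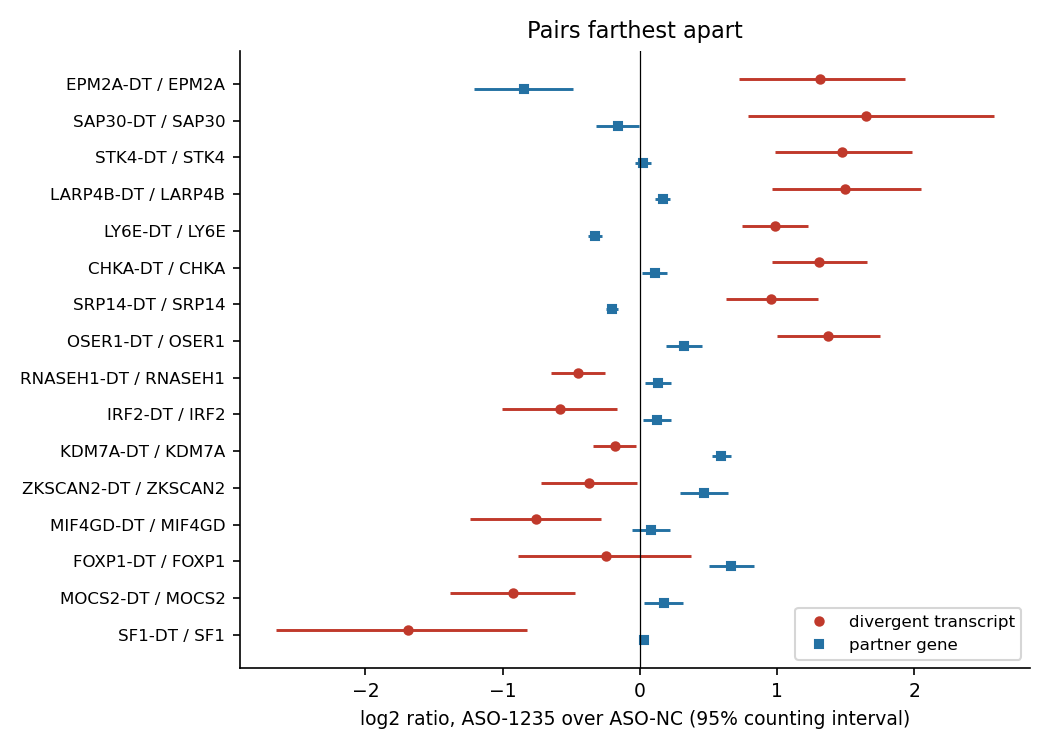
Log2 ratio ASO-1235 over ASO-NC with 95% counting intervals for the divergent transcript (red circles) and the partner (blue squares) of the 8 pairs farthest above and the 8 farthest below a ratio of ratios of 1. EPM2A-DT has the highest and SF1-DT the lowest ratio relative to its partner, with 4.47 and 0.303. Each passed the filter on level only in the library in which it was higher.

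Where both intervals of a pair excluded 1, some pairs had the same direction and others opposite directions. Of 55 such pairs, 29 had both genes higher in ASO-1235, 5 both lower, 13 the divergent transcript higher and the partner lower, and 8 the reverse. Most members and most partners of these pairs were higher, and such a lean gives pairs of the same direction by itself. Agreement beyond it was not tested. Over all 163 pairs, 106 (65.0%) had log2 ratios of the same sign, 70 of them both above 0, and among antisense pairs 57.8% did. The partners of the 34 members at least 1.5-fold higher had a median log2 ratio of 0.20 with 26 above 0, and those of the 9 lower members −0.0002 with 4 above 0. The partners of the other 120 members had a median of 0.04.

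The correlation within pairs was weak. Across the 163 pairs, Pearson's r was 0.20 and Spearman's rho 0.29, and among the 37 pairs with 500 counts they were 0.22 and 0.35. The pairs share both libraries, and the members of a pair share sequence composition: GC content of the divergent transcript and of the partner correlated with a rho of 0.50. The log2 ratio in turn went with GC content, with a rho of −0.25 over members, −0.61 over partners and −0.46 over all genes. With the trend on GC content and transcript length removed, rho across pairs was 0.11 and 91 of 163 pairs had the same sign. In the 122 pairs without shared exonic bases rho was 0.28, and in the 40 with such bases 0.33.

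Lists were also drawn up of the machinery that limits divergent transcripts and of U1 snRNP, which protects the sense transcript. None of their genes that reached 1 CPM passed 1.5-fold. Of 60 genes in 7 lists, 59 reached 1 CPM, and 0 of these were 1.5-fold higher or lower, against 6.40% and 2.95% of all genes and 2.30% and 0.776% of genes with a mean of at least 5 CPM, the level of all 59. At the last shares few calls are to be had among 59 genes, so the count of 0 is near the background. Their median log2 ratio was −0.04, with 25 above and 34 below 0. The nuclear exosome had a median of −0.04 over 12 genes. Its nuclease genes DIS3 and EXOSC10 were at 1.24 (1.17 to 1.30) and 0.972 (0.930 to 1.02), and EXOSC7 was at 0.760 (0.666 to 0.866). EXOSC4, below 1 CPM and so not among the 59, had 14 counts in ASO-1235 and 39 in ASO-NC, a ratio of 0.429 (0.215 to 0.808). The 15 Integrator genes had a median of −0.01 and the 15 genes of cleavage and polyadenylation −0.002, where CSTF3 was at 1.23 (1.15 to 1.31) and CPSF4 at 0.727 (0.670 to 0.787). The NEXT and PAXT adaptors had a median of 0.11 over 7 genes, with RBM27 at 1.49 (1.35 to 1.65). The 5 genes of cap binding and ARS2 and the 2 of Restrictor had medians of −0.04 each, with SRRT, the ARS2 gene, at 0.751 (0.727 to 0.777).

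U1 snRNP was the list with the lowest median, −0.41 over 3 genes. SNRNP70 had 8226 counts in ASO-1235 and 13086 in ASO-NC, a ratio of 0.752 (0.731 to 0.773). SNRPA was at 0.755 (0.719 to 0.793) and SNRPC at 0.845 (0.808 to 0.883). All 3 were lower and none passed 1.5-fold. Whether these levels go with those of the divergent transcripts was not tested.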

How the data were processed

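The authors deposited whole-number read counts per gene for 1 library of each group, without normalization. Per the submitters' processing notes, STAR 2.7.11a and featureCounts 2.0.6 were used with hg38. The labels name neither an annotation release nor a strand setting. The table held 62699 gene IDs with counts, all found in the gene name table that gave the symbols, and 3 lines without counts were left out. GENCODE 29 (GRCh38), used for positions, exon lengths and composition, held 58206 of the IDs.

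TMM factors from genes at 1 CPM were 1.03 for ASO-1235 and 0.971 for ASO-NC (edgeR 4.0.16, R 4.3.3), and edgeR served for scaling alone. Ratios have Clopper-Pearson 95% intervals given the sum of both counts. Log2 ratios have a prior count of 0.5. The ratio of ratios has an exact conditional interval. Without molecular identifiers, PCR copies count as reads, so intervals cover counting error only. A trend on GC content and length (statsmodels 0.14.6, robust spline fit, 5 degrees of freedom) was removed as an alternative. The calculations were tested on simulated data.

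The members, the gene lists and the rule for named genes were chosen with earlier results of these data known. The rule takes the 10 most abundant members, the 8 highest and 8 lowest by the interval bound nearest to 1, the 8 pairs farthest apart each way, pairs with both genes past 1.5-fold, the 3 genes on each side of the 1 CPM limit, and up to 2 genes each way per list. Further names were chosen after their values were seen. Scripts ran on pandas 2.3.3, scipy 1.17.1 and numpy 2.4.6 under Python 3.11.15.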

Additional observations from a re-analysis of the deposited data

How the results depend on the processing

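The filter on level moved the counts most. With 5 CPM in either library, 53 members were left, of which 2 were called higher and 0 lower, 9 and 0 at 1.5-fold. Of 51 pairs, 13 had the divergent transcript above and 8 below its partner, and 33 had the same sign. With 10 counts in all and no CPM filter, 348 members gave 44 called higher and 18 lower, 68 and 27 at 1.5-fold. Of 345 pairs, 60 lay above and 39 below, 213 had the same sign, and 1 partner was called higher. With a mean of 1 CPM over both libraries, 147 members gave 8 called higher, 0 called lower and 5 lower at 1.5-fold. The share of all genes called is not given under these changed filters, so these counts have no background beside them. The 183 -DT genes added below 1 CPM had intervals with a median width of 6.19-fold, against 1.79-fold for the 165 members. On halved counts, 22 members were higher and 5 lower at 1.5-fold and 20 pairs lay above and 11 below, while the 12 and 1 called at 2-fold were counted as before. With scaling by total count, the partners' median log2 ratio was 0.14. With the trend on GC content and length removed, an alternative chosen after seeing the data, 2 members and 1 partner were called lower, the partners' median was 7.2e-05 the rank correlation across pairs 0.11 and Pearson's r 0.06. The median difference within pairs was 0.04 at 5 CPM. DESeq2 1.42.0 size factors and upper-quartile scaling left all counts of called members and partners as reported. No paired analysis was possible because each group has 1 library.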

Other observations

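By chromosome, picked out after the values were seen, 8 of the 10 divergent transcripts on chromosome 8 had log2 ratios above 0 and 6 were at least 1.5-fold higher in ASO-1235, among them RNF139-DT, PPP1R3B-DT, LY6E-DT, PCMTD1-DT and RIPK2-DT. Their median log2 ratio over the 10 was 0.65, against 0.23 for their partners, 0.06 for the 468 genes of chromosome 8 at 1 CPM and 0.23 for the 113 of these with a mean under 5 CPM. Higher medians came from fewer members: 0.94 over 4 on chromosome 6, 0.86 over 5 on chromosome 10 and 1.41 over 2 on chromosome 20, with 3, 3 and 2 of them at least 1.5-fold higher. On chromosome 1, 7 of 14 members were above 0, with a median of −0.03. On chromosome X, 1 of 4 was above 0. As a background, the 1.5-fold rule marked 6.40% of all genes as higher, and 17.9% of those with a mean under 5 CPM. The share for the genes of each chromosome is not given here. RNF139-DT and PPP1R3B-DT stood below 1 CPM in ASO-NC, so both had to be higher in ASO-1235 to be members. The difference between chromosomes was not tested.

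Below the limit for membership, 183 further -DT genes had at least 10 counts in all. Their median log2 ratio was 0.06, with 95 above and 88 below 0.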
